A study of Mus musculus with 10 samples.

Results

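The genes described here are 8 genes of the alveolar type 2 cell, the surfactant-making cell of the lung: the surfactant protein genes Sftpa1, Sftpb, Sftpc and Sftpd, the lamellar body genes Abca3 and Lamp3, the protease gene Napsa and the phosphate transporter gene Slc34a2. They were chosen by name as known genes of this cell, and all 8 were among the 24059 gene symbols of the count table. Whole lungs came from 10 female C57Bl/6 mice, 14 weeks old, 5 fed the FO diet and 5 the CO diet for 8 weeks. Both were high-fat, semipurified diets (19% fat, with added cholesterol), and all animals had undergone pulmonary function testing before the lungs were flushed with PBS and taken for RNA. The FO diet drew its fat from menhaden fish oil, rich in n-3 polyunsaturated fatty acids, and corn oil. The CO diet drew its fat from coconut oil, rich in saturated fat, with olive and corn oil. Mice on a standard diet were not analysed here. The study's list of diet components also gives less cholesterol and more ceramides in FO than in CO. The comparison asks whether RNA levels of the 8 genes differed between the whole diets, whose components cannot be told apart.

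Surfactant is a film of phospholipid and protein that lowers surface tension in the alveoli, and alveolar type 2 cells make, store and secrete it. The lipid is loaded into lamellar bodies by the transporter ABCA3, and the small hydrophobic proteins SP-B and SP-C, encoded by Sftpb and Sftpc, help the film to form and spread. SP-A and SP-D, encoded by Sftpa1 and Sftpd, are collectins that bind microbes and help to regulate surfactant turnover. In RNA from whole lung, fewer alveolar type 2 cells and less RNA per cell cannot be told apart.

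Between 229766 and 1124963 reads per mouse had been counted on genes, and Rn45s, the ribosomal RNA precursor, took from 21.8% to 87.0% of them, which left between 45177 and 473254 counts on all other genes. FO mouse 2 and CO mouse 5 stood apart by the nuclear RNA Malat1, with 8.53% and 6.15% of the counts outside Rn45s against at most 1.05% in the other mice, so results that rest on these mice are also given without them. CO mouse 4 stood apart by its low Rn45s share, 21.8% against 51.7% to 87.0% in the others, and by a TMM factor of 3.21 against at most 1.596. For the 8 genes, values without CO mouse 4 are given where they moved. All 705 protein-coding genes of chromosome 15 were listed at 0 in every mouse, against 21.7% to 43.9% of such genes on the other autosomes and X. None of the 8 genes lies on that chromosome. Normalized levels are CPM, a gene's counts scaled to the same library total in every mouse with edgeR's TMM factors, and differences between the diets are log2 fold changes of FO over CO from edgeR's quasi-likelihood test. A gene was called at an unadjusted p-value under 0.05, the threshold of the study's methods. Of 2438 genes that passed the filter on low counts, 2.91% were called, with 1.68% above and 1.23% below the CO level. In this fit 0% passed Benjamini-Hochberg adjustment over all genes tested. DESeq2 passed 1 gene, not one of the 8. So did edgeR with all genes that had a count, without FO mouse 2, and without both FO mouse 2 and CO mouse 5.

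Promoter sequences are given for Sftpa1 and Slc34a2, whose levels rose and fell together across the mice, and for Lamp3, the gene with the largest spread. Each runs 5′ to 3′ from 250 bases before to 50 bases after the RefSeq start site (GRCm38.p6), and capitals mark the motif matches. The windows are chr14:41131538-41131837 (plus strand), chr5:53049103-53049402 (plus strand) and chr16:19706316-19706615 (minus strand).
Sftpa1: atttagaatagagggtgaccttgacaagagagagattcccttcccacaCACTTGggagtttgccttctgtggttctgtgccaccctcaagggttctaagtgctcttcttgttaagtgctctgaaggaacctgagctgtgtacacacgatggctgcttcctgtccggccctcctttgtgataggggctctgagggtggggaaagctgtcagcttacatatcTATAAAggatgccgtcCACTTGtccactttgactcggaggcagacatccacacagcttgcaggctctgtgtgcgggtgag
Slc34a2: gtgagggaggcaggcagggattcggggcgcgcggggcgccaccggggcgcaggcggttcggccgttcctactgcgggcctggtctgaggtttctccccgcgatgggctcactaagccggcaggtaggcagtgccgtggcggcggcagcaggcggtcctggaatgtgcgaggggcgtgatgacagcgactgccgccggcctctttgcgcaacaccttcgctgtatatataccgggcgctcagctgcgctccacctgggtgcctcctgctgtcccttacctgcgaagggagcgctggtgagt
Lamp3: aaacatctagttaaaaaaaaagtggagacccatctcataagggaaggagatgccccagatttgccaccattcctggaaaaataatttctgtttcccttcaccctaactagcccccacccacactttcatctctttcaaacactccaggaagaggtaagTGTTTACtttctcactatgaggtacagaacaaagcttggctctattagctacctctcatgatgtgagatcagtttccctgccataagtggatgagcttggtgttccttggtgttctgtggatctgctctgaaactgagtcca
The letters searched were CACTTG on both strands, a form of the sites bound by NKX2-1, the transcription factor that directs lung epithelial genes, TGTTTAC on both strands, a form bound by forkhead factors such as FOXA2, and TATAAA on the given strand. CACTTG is also an E-box (CANNTG), a site of other factors. The Sftpa1 window held CACTTG at 2 places, beginning at positions -202 and -14 from the start site, and TATAAA beginning at -30. Of the 32851 promoter windows of RefSeq, 13.6% held CACTTG or its reverse complement at least once and 1.2% at least 2 times, and 8.32% held TATAAA. The Lamp3 window held TGTTTAC, which 3.65% of windows hold, at -92. The Slc34a2 window held none of these letters, nor did those of Sftpb and Abca3. For Slc34a2 the window lies inside the gene as annotated by GENCODE, which begins at 53038081. The sequence at that upstream start was not searched. Entries for Sftpc, Sftpd and Napsa were not used here.

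All 8 genes had counts, and Sftpc and Sftpa1 stood among the most abundant of the genes tested. By mean CPM, Sftpc ranked 23, Sftpa1 35, Sftpd 246 and Sftpb 564 of the 2438 genes tested. Together the 8 genes held between 0.358% and 1.01% of the counts outside Rn45s. The lowest share was that of CO mouse 4 (95% exact Clopper-Pearson interval 0.336% to 0.381%) and the highest that of FO mouse 2 (0.986% to 1.04%), and these intervals cover counting error only. Per length of exon, Sftpc was the highest at 967 ± 352 CPM per kb (SD, n = 10 mice), followed by Sftpa1 at 219 ± 80.5, and each of these steps down the order held in 10 of 10 mice. Sftpd at 69.0 ± 39.9 and Sftpb at 46.8 ± 12.9 CPM per kb came next, and since Sftpd lay above Sftpb in only 6 of 10 mice, this order did not exceed their spread. Lamp3, Slc34a2 and Napsa lay close together at 24.4 ± 12.7, 21.4 ± 6.53 and 18.5 ± 8.38 CPM per kb. Their order did not hold in every mouse either, and with the length of the longest transcript Napsa lay above Slc34a2 and Lamp3. Abca3 stood far below all of them at 0.322 ± 0.365 CPM per kb.

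**Figure D1:**
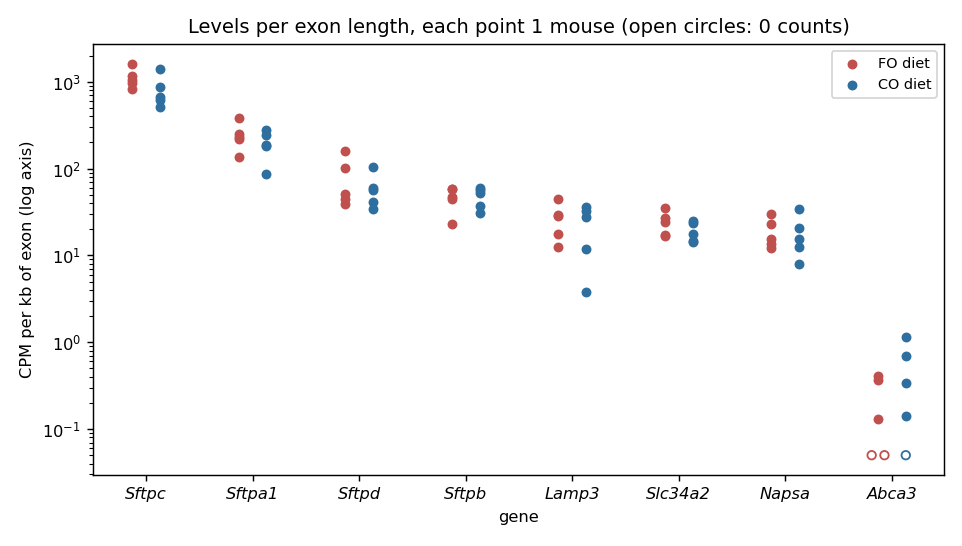
Levels of the 8 genes in each of 10 mice, as TMM-scaled CPM per kb of exon on a log axis, with FO mice in red and CO mice in blue and open circles for mice with 0 counts. Sftpc (mean 967 CPM per kb) lies above Sftpa1 (219) in every mouse, and Abca3 (0.322) lies below all other genes.

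Sftpc, whose product is found only in alveolar type 2 cells, lies on chromosome 14 from 70520949 to 70524081 (mm10, minus strand) and overlaps no other annotated gene. Its levels in FO mice 1 to 5 were 862, 1672, 1194, 986 and 1074 CPM. In CO mice 1 to 5 they were 638, 682, 907, 523 and 1461 CPM. All 5 FO mice lay above the CO median, but CO mouse 5 lay above every FO mouse except FO mouse 2, so that the groups overlapped. The group means were 1158 ± 312 CPM for FO and 842 ± 373 CPM for CO (SD, n = 5 mice each). FO over CO came to 0.45 ± 0.29 (SE) on the log2 scale. The 95% interval of the ratio of FO over CO ran from 0.904 to 2.07, and the unadjusted edgeR p was 0.129. The two-sided exact permutation p was 0.127. Without CO mouse 5 the value was 0.75 ± 0.26 (SE) and the gene was called, in a fit that called 3.13% of 2075 genes. Without both CO mouse 5 and FO mouse 2 it was 0.58 ± 0.23 (SE) and called, where 3.93% of 1830 genes were. Without FO mouse 2 alone it was 0.27 and not called, in a fit that called 7.26% of 2120 genes. In neither fit that called Sftpc did it pass adjustment over all genes, with edgeR adjusted p-values of 0.9995 and 0.9993.

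The collectin gene Sftpa1, on chromosome 14 from 41131782 to 41136452, had levels of 391, 1089.8, 626, 659.7 and 720.4 CPM in FO mice 1 to 5. Its levels in CO mice 1 to 5 were 518, 527, 699, 249 and 794 CPM. FO mouse 2 was the highest and CO mouse 4 the lowest of the 10, and the other 8 mice of both diets were interleaved. On the log2 scale FO over CO was 0.32 ± 0.30 (SE), with a 95% interval of the ratio from 0.808 to 1.94. It was 0.095 without FO mouse 2, 0.13 without CO mouse 4 and 0.10 by limma-voom. Sftpd, the other collectin gene, lies on the same chromosome from 41172214 to 41185149. It had 122, 384, 245, 95.1 and 108 CPM in FO mice 1 to 5 and 99.7, 144, 138, 81.9 and 251 CPM in CO mice 1 to 5. FO mice 2 and 3 and CO mouse 5 were high, and the other 7 mice lay close together. The log2 value was 0.40 ± 0.38 (SE) with all mice and -0.12 without FO mouse 2, so its direction rested on that mouse. It was 0.22 without CO mouse 4 and 0.016 by limma-voom.

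Sftpb encodes the surfactant protein without which newborn mice cannot breathe, and lies on chromosome 6 from 72304610 to 72314371. Its levels were 88.6, 115.4, 45.2, 91.4 and 114.6 CPM in FO mice 1 to 5. In CO mice 1 to 5 they were 59.8, 117, 103, 73.5 and 112 CPM. The ranges covered each other almost entirely, with means of 91.0 ± 28.5 CPM in FO and 93.0 ± 25.1 CPM in CO (SD, n = 5 mice each). The log2 value was 0.0023 ± 0.26 (SE), with a 95% interval of the ratio from 0.687 to 1.46, which does not show equal levels. With Rn45s left out the SE was 0.38, so the width of the interval depended on the fit. The lowest value, in FO mouse 3, rested on 7 counts.

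**Figure D2:**
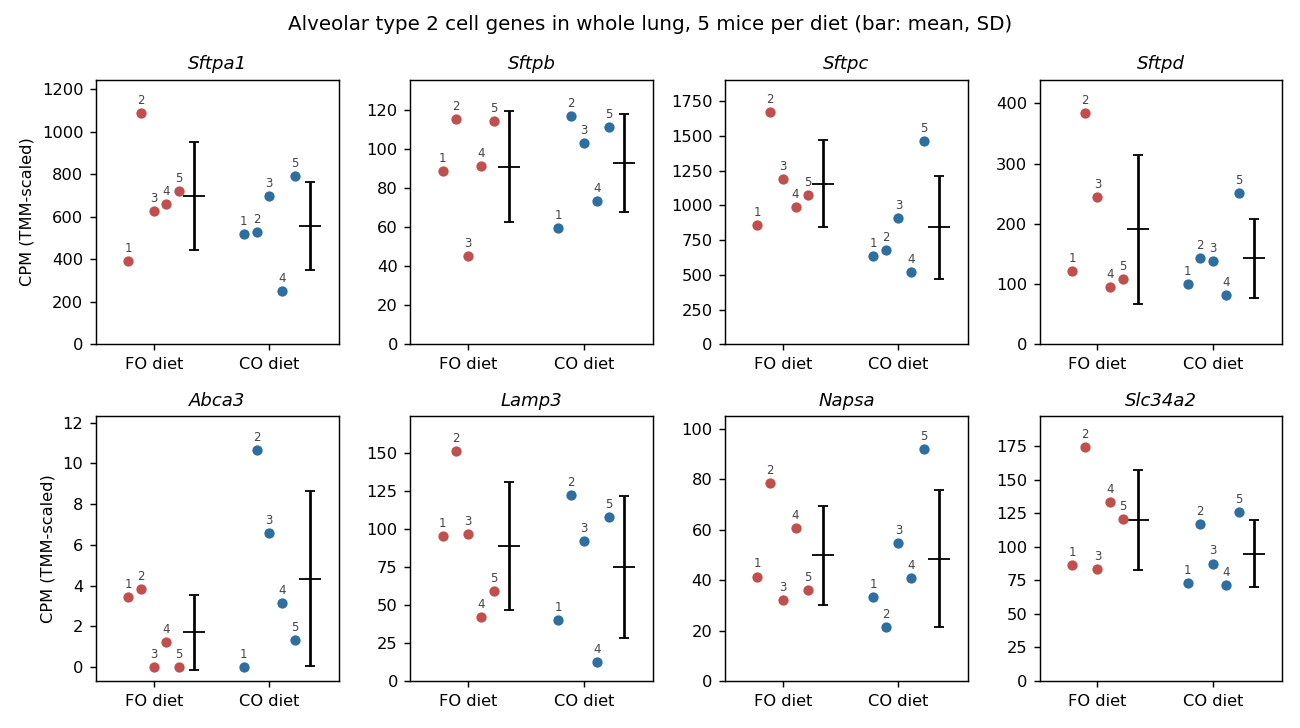
TMM-scaled CPM of each gene in each mouse, FO in red and CO in blue, with mouse numbers above the points and black bars for the mean and SD of 5 mice. FO mouse 2 is the highest of the FO group for all genes, CO mouse 5 is the highest CO mouse for 5 of the 8, and the groups overlap for every gene.

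The lamellar body genes were the least certain. Lamp3, a lysosomal membrane protein gene on chromosome 16 from 19653378 to 19706375, had 95.5, 151, 96.8, 42.0 and 58.9 CPM in FO mice 1 to 5 and 39.9, 123, 92.0, 12.6 and 108 CPM in CO mice 1 to 5. CO mouse 4 stood lowest, with 12 counts. Among the 7 members tested Lamp3 had the largest spread between mice of 1 diet, with an SD of 1.01 on the log2 CPM scale against a median of 0.47 over all genes tested. FO over CO was 0.29 ± 0.46 (SE) on the log2 scale, or -0.043 without CO mouse 4 and -0.040 without FO mouse 2. Abca3, the lipid transporter of the lamellar body, on chromosome 17 from 24351950 to 24410201, had 3, 5, 0, 1 and 0 counts in FO mice 1 to 5 and 0, 2, 3, 3 and 1 counts in CO mice 1 to 5. Only FO mouse 2 exceeded 3 counts, the floor used here for each mouse, and both groups summed to 9 counts. The filter removed Abca3, and when all 14161 genes that had a count were fitted, where edgeR called 4.15%, its log2 value was -0.60 ± 0.89 (SE). The 95% interval ran from -2.33 to 1.14, so at this depth the counts gave neither the direction nor the size of a difference. D330041H03Rik, on the opposite strand, covers 9.75% of the exon bases of Abca3 and was itself listed at 0, and the strand setting of the counting is not given in the sources used here.

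Napsa encodes napsin A, an aspartic protease that helps to cut the SP-B precursor, and lies on chromosome 7 from 44572380 to 44586862. It had 41.4, 78.7, 32.3, 60.5 and 36.0 CPM in FO mice 1 to 5 and 33.2, 21.3, 54.8, 40.9 and 91.9 CPM in CO mice 1 to 5. The highest mouse of all was CO mouse 5 and the lowest CO mouse 2, with 4 counts, so the CO values spanned the FO values. The log2 value was 0.011 ± 0.34 (SE), or -0.24 without FO mouse 2 and 0.41 without CO mouse 5. The antisense gene Gm15396 covers 18.9% of its exon bases, so reads of both could not be told apart without strand. Slc34a2, which takes up the phosphate of recycled surfactant, lies on chromosome 5 from 53038081 to 53071664. It had 86.3, 174, 83.9, 133 and 121 CPM in FO mice 1 to 5 and 73.1, 117, 87.6, 71.4 and 126 CPM in CO mice 1 to 5. Its spread within a diet was the smallest of the 7 genes tested, with an SD of 0.40 on the log2 CPM scale, and FO over CO was 0.36 ± 0.26 (SE) on the log2 scale. It was 0.18 without FO mouse 2 and 0.20 by limma-voom.

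Of the 7 genes that passed the filter, 0 were called in either direction by edgeR, beside 2.91% of all genes, and each had an adjusted p = 0.998. DESeq2 and limma-voom also called 0 of the 7, where limma-voom called 4.8% of all genes. Of the 7, 0 had groups that did not overlap, as 0.41% of all genes did. The two-sided exact permutation p of the difference of mean log2 CPM ranged from 0.127 for Sftpc to 0.857 for Sftpb, where 0.0079 is the smallest that 5 mice against 5 allow, and each was 0.998 after adjustment over all genes tested. All 7 log2 fold changes were above 0, as were 50.6% of all genes, with a median of 0.32 against 0.0034 over all genes. With limma-voom 5 of 7 were above 0 and the median was 0.10, and with library size alone 2 of 7 were above 0, where the median of all genes was -0.55. Because these genes varied together from mouse to mouse, 7 equal signs are not 7 separate observations. FO mouse 2 had the highest level in its group for each of them, and without it 3 of 7 were above 0 and the median was -0.040. Without CO mouse 4 the median was 0.13, with 4 of 7 above 0. Without both FO mouse 2 and CO mouse 5, the libraries with high Malat1, 7 of 7 were above 0 and the median was 0.24. The part of library type in these values was not tested.

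**Figure D3:**
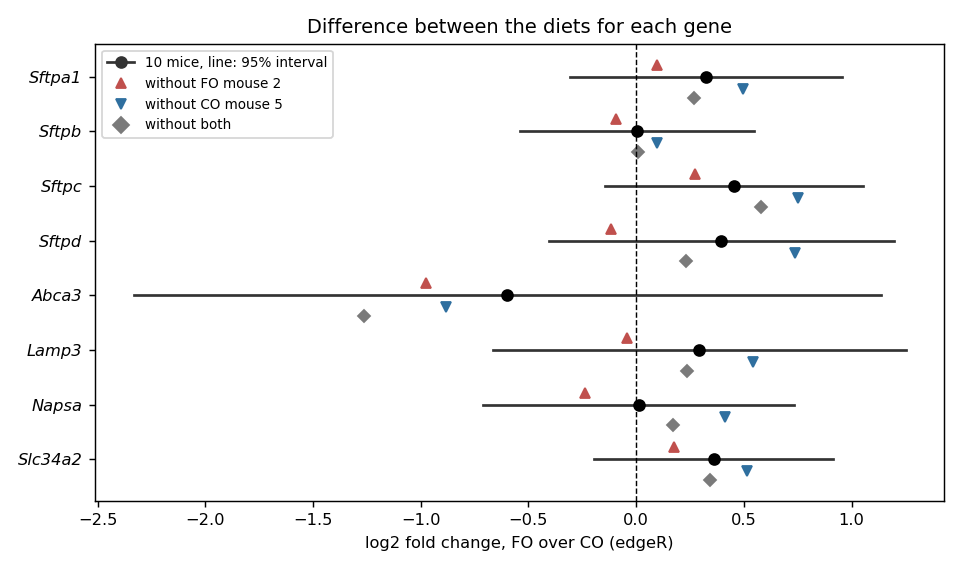
Log2 fold change of FO over CO for each gene from edgeR, with the 95% interval from all 10 mice as a line and the value without FO mouse 2, without CO mouse 5 and without both as colored symbols. All intervals cross 0, and 4 of the 7 genes that passed the filter fall below 0 without FO mouse 2. All values of Abca3 come from fits of genes with any count.

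Within a mouse, the shares of the 8 genes in their summed counts do not depend on scaling between mice. Sftpc made up from 39.1% to 51.4% of these counts and Sftpa1 from 23.1% to 35.5%. The mean share of Sftpc was 48.7 ± 2.43% in FO and 45.1 ± 4.49% in CO mice (SD, n = 5 mice each), and that of Sftpb was 3.98 ± 1.41% and 5.30 ± 1.47%. For each 100 counts of Sftpc there were 10.3, 6.9, 3.78, 9.27 and 10.7 counts of Sftpb in FO mice 1 to 5 and 9.38, 17.2, 11.4, 14.1 and 7.64 in CO mice 1 to 5. The groups overlapped, with CO mice 2, 3 and 4 above every FO mouse. This ratio was chosen after the values were seen and was not tested. The share of Lamp3 ran from 1.19% in CO mouse 4 to 7.03% in CO mouse 2.

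**Figure D4:**
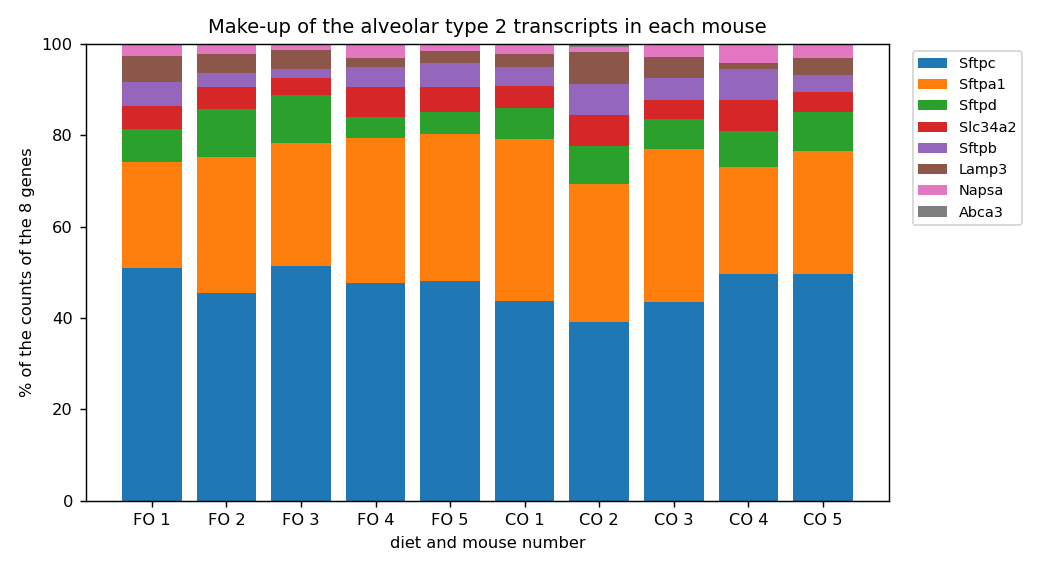
Share of each of the 8 genes in their summed counts, in percent, for each FO and CO mouse. Sftpc and Sftpa1 are the largest parts in all 10 mice, and the Lamp3 share is smallest in CO mouse 4 (1.19%) and largest in CO mouse 2 (7.03%).

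The 7 genes tested varied together across the 10 mice, with a positive Pearson correlation of log2 CPM in 21 of 21 pairs and a median r of 0.55. All pairs share the scaling of each library, and the labels name no batch. Correlations between pairs of other genes were not computed, so these values are not shown to be particular to the type 2 genes. The mean log2 CPM of the 7 genes had r = 0.78 with the log2 Malat1 share and rho = 0.60 with that share. For the Rn45s share these were 0.33 and -0.19, and for the counts outside Rn45s 0.35 and 0.28. The part of library type in the correlations was not tested. The closest pair was Sftpa1 and Sftpc, with r = 0.86 (permutation p = 0.00082, adjusted p = 0.017 over the 21 pairs) and rho = 0.88 (permutation p = 0.0015, adjusted p = 0.016). Without the 2 mice farthest from the median of Sftpa1, r was 0.66, and without FO mouse 2 and CO mouse 5 it was 0.77. Sftpc and Sftpd had r = 0.82 (permutation p = 0.0032, adjusted p = 0.033) and rho = 0.73 (permutation p = 0.020, adjusted p = 0.072), with r = 0.65 without the 2 mice farthest from the median. Sftpd and Lamp3 had r = 0.77 (permutation p = 0.0087, adjusted p = 0.045) and rho = 0.94 (permutation p = 0.00025, adjusted p = 0.0052), with r = 0.74 without the 2 mice farthest from the median. Sftpa1 and Slc34a2, whose promoters are printed above, had r = 0.76 (permutation p = 0.0079, adjusted p = 0.045) and rho = 0.83 (permutation p = 0.0049, adjusted p = 0.034), with r = 0.51 without the 2 mice farthest from the median. In these terms 4 of the 21 pairs passed adjustment by r. Napsa and Sftpb were the least tied to the others, and Sftpb with Sftpd gave the lowest r, 0.13.

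The relations were weaker without the libraries with high Malat1. Without FO mouse 2 and CO mouse 5 the median r fell to 0.24 and 16 of 21 pairs stayed above 0, with Sftpb and Sftpd at -0.36 and Napsa and Sftpd also at -0.36. Taken as deviations from the mean of each diet, the median r was 0.52 and 21 of 21 pairs were above 0. With 5 mice a diet, correlations within 1 diet were not computed.

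**Figure D5:**
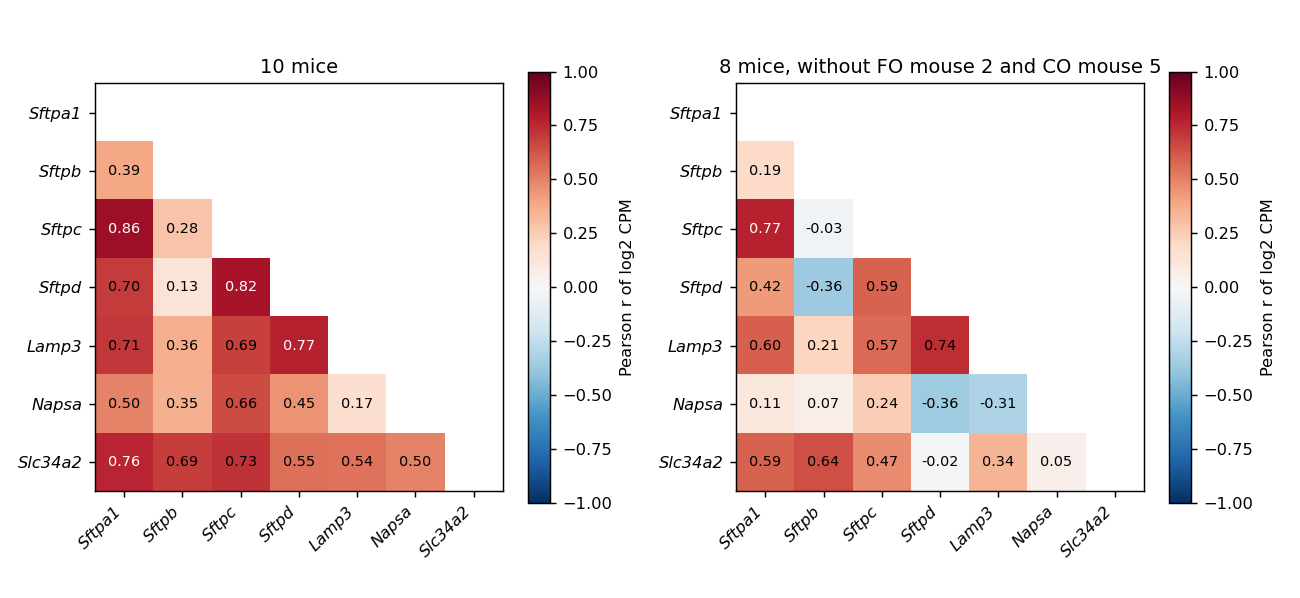
Pearson correlations of log2 CPM between the 7 genes tested across 10 mice on the left and across the 8 mice other than FO mouse 2 and CO mouse 5 on the right, with red for positive and blue for negative values. The Sftpa1 and Sftpc pair stays high (0.86 and 0.77), while the lowest pairs reach -0.36.

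Of 22 other genes known from alveolar type 2 cells, 9 passed the filter and 0 were called. Their median log2 fold change was 0.20, and 8 of the 9 were above 0, beside 50.6% of all genes. The most abundant were Lyz2, a lysozyme gene also active in macrophages, at 244 ± 102 CPM in FO and 183 ± 105 CPM in CO mice, and Cbr2, a carbonyl reductase gene also active in club cells, at 158 ± 45.2 and 139 ± 43.4 CPM (SD, n = 5 mice each). Scd1, the desaturase that makes monounsaturated fatty acids, went the other way, at 98.7 ± 35.4 and 146 ± 48.2 CPM, and was not called, with a log2 value of -0.56 ± 0.28 (SE). In the fit of genes with any count, where 4.15% of genes were called, 3 of the 22 were called, all higher in FO and none past adjustment (edgeR adjusted p = 0.905 for each). They fall outside the rule for named genes and are given because they are few: Acoxl with a log2 fold change of 1.41, Il33 with 1.11 and Mfsd2a with 2.84, the last on 5 counts in FO and 0 in CO mice. Mfsd2a entered that fit through its FO counts alone, which fixed its direction. The study had already named Acoxl as higher in the fish oil group from these data, so its call is not separate support.

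Genes for surfactant processing, secretion and turnover had 11 of 24 tested, 6 higher and 5 lower in FO, with 0 called and a median log2 fold change of 0.015. Prdx6, a peroxiredoxin with phospholipase activity that takes part in surfactant breakdown, was the most abundant at 411 ± 134 CPM in FO and 426 ± 216 CPM in CO mice. Nedd4, a ubiquitin ligase gene, had a log2 value of -0.10 ± 0.28 (SE) and Anxa2, a calcium-dependent membrane-binding protein gene, one of 0.015 ± 0.25 (SE). Of 24 transcription factors and receptors of these cells, 10 were tested, 4 with values above and 6 below 0, and the median was -0.15. One of the 10, Wwtr1, which encodes the Hippo pathway coactivator TAZ, was called lower, as 1.23% of all genes were. It had 92.2 ± 12.9 CPM in FO and 131 ± 38.6 CPM in CO mice, or -0.55 ± 0.24 (SE) on the log2 scale (adjusted p from edgeR = 0.998). Wwtr1 was not called without CO mouse 4, FO mouse 1, FO mouse 2 or FO mouse 4, each left out alone, by limma-voom, when genes with any count were fitted or with the replicate number as a block. Nfib, Nfia and Nr3c1, the most abundant of the list, had log2 fold changes of -0.18, -0.41 and -0.34 and were not called. Nkx2-1 itself had 40 counts over all mice and Foxa2 112, and neither passed the filter.

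Genes of other lung cells are given as a measure of the make-up of the samples. Of 12 genes shared by lung epithelia, 3 were tested and 0 called. They were the junction genes Cdh1 with a log2 fold change of 0.48, Cldn18 with -0.91 and Tjp1 with -0.14, and Krt7, Krt8 and Krt18 of this list lie on chromosome 15 and were listed at 0. The summed CPM of the 8 type 2 genes ranged from 1690.4 to 3669 in FO and from 1055 to 2944 in CO mice, while that of 11 alveolar type 1 genes ranged from 1013 to 1291 and from 929 to 2509, and that of 6 club cell genes from 1444 to 2337 and from 1152 to 2897. CO mouse 4, the library with the lowest Rn45s share and lowest for the summed type 2 genes, had the highest levels of Cldn18, 777 CPM, and of the type 1 gene Akap5, 772 CPM. Akap5 was called lower in FO, as 1.23% of all genes were (-0.96 ± 0.34 (SE) on the log2 scale, adjusted p from edgeR = 0.998), and was the only one of 9 type 1 genes tested to be called, and 0 of this list were called without CO mouse 4 or by limma-voom. Of 5 club, 8 endothelial, 2 macrophage, 1 ciliated and 1 cardiac gene tested, 0 were called. Values above 0 were not limited to type 2 genes. Fibroblast and smooth muscle genes had 7 of 9 above 0, with a median of 0.23, and macrophage genes 2 of 2. Type 1 genes had 1 of 9 above 0, club cell genes 1 of 5 and endothelial genes 3 of 8. Of 9 fibroblast and smooth muscle genes 1, the actin gene Acta2, was called higher, and of 2 blood cell genes 1, the neutrophil gene S100a9, was, beside 1.68% of all genes. Of the fibroblast and smooth muscle genes 0 were called without FO mouse 2 and CO mouse 5, without FO mouse 4 or with library size alone. When genes with any count were fitted, where 4.15% of all genes were called, 2 of 10 macrophage genes (Lpl and Cd68), 2 of 9 cardiac genes (Tnnt2 and Tnni3), 2 of 11 fibroblast and smooth muscle genes (Acta2 and Myh11) and 3 of 8 blood cell genes (S100a8, S100a9 and Alas2) were called higher in FO. Of all genes fitted so, only S100a9 passed adjustment (edgeR adjusted p = 1.99e-05), on 236 counts in FO and 39 in CO mice. In that fit 1 of 9 epithelial genes (Cldn18), 1 of 10 type 1 genes (Akap5) and 1 of 6 club cell genes (Scgb3a1) were called lower. For Cldn18, CO mice 1 to 3 had 86.4, 79.9 and 85.4 CPM, below every FO mouse (96.4 to 291 CPM). CO mice 4 and 5 had 777 and 245 CPM, so the lower value of Cldn18 in FO rested on those mice. Genes not called with the filter are named outside the rule for named genes, after their values were seen. Macrophage genes summed to between 204 and 413 CPM in FO and between 82.9 and 312 CPM in CO mice. The hemoglobin genes Hbb-bs, Hbb-bt, Hba-a1 and Hba-a2 were listed at 0 and give no measure of blood. The part of these differences in the values of the type 2 genes was not tested.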

How the data were processed

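RNA from whole lung of 10 mice was sequenced as single-end reads. The deposited values are unnormalized counts for each gene symbol, which the authors made with STAR 2.4.0f1 on mm10, SAMtools 0.1.19 and htseq-count. Libraries were made with TruSeq v2 or riboZero, and the kit of each mouse, the annotation and the strand setting are not given in the sources used here. Groups came from sample titles, and each sample is 1 mouse.

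Counts were tested with edgeR 4.0.16 (R 4.3.3): TMM scaling, default filter (minimum count 10, minimum total 15), quasi-likelihood test, FO against CO, Benjamini-Hochberg adjustment over 2438 genes. Depth outside Rn45s ranged from 45177 to 473254 counts, and the exact intervals of shares of counts cover counting error only. Intervals of fold changes and ratios come from the quasi-likelihood fit and include the spread between mice. Log2 CPM used a prior count of 2. Single genes were also tested with two-sided exact permutation over 252 assignments, and correlations with 100000 permutations over the 21 pairs of the 7 members that passed the filter. Exon lengths and positions came from GENCODE M21 (GRCm38, the build of mm10), promoters from RefSeq. The fits were tested on simulated counts with known changes.

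Alternatives were RLE factors, library size alone, DESeq2 1.42.0, limma-voom (limma 3.58.1) with sample quality weights, other filters, robust estimation, leaving out Rn45s or the members from scaling, the replicate number as a block, and leaving out mice. Scaling by counts outside Rn45s and the longest-transcript length were added after seeing the data. Same-numbered FO and CO mice are different animals. Named genes are the 8 members, up to 4 called genes and the 3 most abundant of the related lists, the 5 genes most like the members across mice, Rn45s and Malat1. The members and lists were chosen with earlier results of these data known. Hemoglobin genes, keratins, D330041H03Rik, Gm15396 and the regulators below the filter are named outside that rule.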

Additional observations from a re-analysis of the deposited data

How the results depend on the processing

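Of 170 refits of single genes, 143 kept direction and side of the threshold, 25 changed direction and 2 called Sftpc (without CO mouse 5, and without both it and FO mouse 2), which made the members called higher 1 in each. Library size alone moved the median of all genes to -0.55. It gave -0.033 for Sftpc and for the median of the members, -0.024 for Sftpd, -0.088 for Slc34a2, -0.42 for Sftpb and -0.55 for Napsa, and relative to the median of all genes the members' median stayed higher. Sftpb, at 0.0023, turned to -0.00012 with DESeq2, -0.0054 with RLE factors, -0.00015 without Rn45s, -0.011 with counts outside Rn45s alone, -0.10 with limma-voom and -0.010 with a replicate block. Napsa turned to -0.0047 with limma-voom. Without CO mouse 4, Sftpb turned to -0.081 and Napsa to -0.079, while Sftpc stayed above 0 at 0.33 and Slc34a2 at 0.26. With each mouse left out in turn, log2 fold changes ranged from -0.043 to 0.54 for Lamp3, -0.24 to 0.41 for Napsa, -0.11 to 0.10 for Sftpb, -0.12 to 0.74 for Sftpd, 0.27 to 0.75 for Sftpc, 0.095 to 0.50 for Sftpa1 and 0.18 to 0.52 for Slc34a2. The median of the members ranged from -0.040 to 0.52, the members called higher from 0 to 1, and all genes called from 54 to 154 (71 with all mice). All genes called were 15 with at least 10 counts in every mouse, 587 with any count, 36 with library size alone and 117 with limma-voom. The different filters test different numbers of genes, and the other causes were not tested.

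The median correlation between members was 0.24 without FO mouse 2 and CO mouse 5 and 0.80 with CPM without TMM scaling, where the depth taken by Rn45s enters every gene. Counts of called genes in the other lists moved to or from 0, or by over 1.5 times, in 62 of 264 refits. Same-numbered FO and CO mice had a mean correlation of deviations of -0.12 (range -0.41 to 0.03 over 5 pairs), against 0.030 for other pairs. Of 10 mice, 0 correlated best with their own number. With 5 pairs and no test, these values cannot tell whether same-numbered mice shared a batch. With the replicate number as a block, 0 members were called, the members' median was 0.34 and 55 genes were called. Fits with 1 mouse left out keep 4 or 5 mice a group. The depth, down to 45177 counts outside Rn45s, limits Abca3 most, for which at least 10 counts in every mouse and limma-voom gave no value.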

Other observations

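The genes outside the 8 whose levels were most like the mean log2 CPM of the 7 tested members across the 10 mice were Ccdc47 (Pearson r = 0.95), Nemf (0.95), Hnrnpa2b1 (0.94), Itgb1 (0.93) and Rapgef5 (0.91). Without FO mouse 2 and CO mouse 5 the same r values were 0.87, 0.97, 0.86, 0.80 and 0.82. These are descriptions over 10 mice that share the scaling of each library, selected as the highest of all other genes tested, and they carry no p-value. None of the 5 is in the lists of lung cell genes used here. Ccdc47 rested on 446 counts over all mice, Nemf on 286 and Rapgef5 on 334.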
